A study of Mus musculus with 24 samples.

Results

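The 9 erythroid genes Gata1, Klf1, Epor, Tfrc, Alas2, Car2, Slc4a1, Rhag and Ermap, which serve red blood cell formation, were followed across sorted myeloid-derived suppressor cells (MDSCs) of mouse spleen. They were taken by symbol and make up 9 of the 23479 genes in the deposited table. The rule itself uses no measured value, but the members were chosen with earlier results of these data known. All 9 are described in all 24 libraries, in 8 groups of 3.

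In the erythroid lineage, the transcription factors GATA1 and KLF1 switch on the genes of the maturing red cell. Erythropoietin, acting through its receptor EPOR, keeps the precursors alive, the transferrin receptor TFRC brings in iron, and ALAS2 starts heme synthesis. The finished cell carries the anion exchanger SLC4A1 and the Rh-associated glycoprotein RHAG in its membrane and carbonic anhydrase 2 (CAR2) in its cytosol. In the mouse the spleen makes red cells alongside the marrow, above all during anaemia and after marrow injury. TFRC is also used by any dividing cell that needs iron, and GATA1 is shared with the megakaryocyte lineage, so neither marks red cells alone. How narrowly the other members, Car2 among them, mark the lineage was not tested.

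MDSCs, immature cells of the myeloid lineage that accumulate with a tumour and dampen T cells, were sorted as a monocytic (M-MDSC) and a polymorphonuclear (PMN-MDSC) population to a stated purity above 99%. All mice carried B16 tumours (a mouse melanoma line) larger than 25 mm2 and were either left untreated (UT) or lymphodepleted (LD) with cyclophosphamide and fludarabine, with spleens taken 7 days after treatment. They were C57BL/6 mice labelled wild type (WT) or mice of strain B6.129S2-Il6tm1Kopf/J labelled interleukin-6 knockout (KO), which carry a targeted disruption of Il6. A library such as WT_LD_M_2 is named by genotype label, treatment, cell type and replicate. Ages are not given, nor whether libraries of both cell types with 1 number came from the same mouse. The p-values therefore measure the spread between these samples.

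Total reads ranged from 7237462 to 11193088 in the 12 M-MDSC libraries and from 3249647 to 9999731 in the 12 PMN-MDSC libraries. Il6 transcripts were higher in the KO-labelled libraries of both cell types (log2 difference 4.95 ± 0.65 SE in untreated M-MDSCs and 6.44 ± 0.89 SE in untreated PMN-MDSCs). A count over the whole gene does not tell a disrupted transcript from an intact one, so the genotype is given as labelled throughout. Ccr2, a monocyte chemokine receptor, lay at 3366 to 7506 normalized counts in M-MDSCs against 32.1 to 320.9 in PMN-MDSCs. Retnlg, a neutrophil gene, lay at 1.32 to 21.7 against 1791 to 4384. The 6 listed M-MDSC markers, Ccr2 among them, had a higher mean sum in PMN-MDSCs for every label and treatment. Mean sums in M-MDSCs and PMN-MDSCs were 23231 and 26969 in untreated WT-labelled cells, and 17068 and 25823 in lymphodepleted KO-labelled cells. PMN-MDSC markers had mean sums of 9728 and 134008 in untreated WT-labelled cells. Itgam is in both marker lists. Ly6g was not analysed here. In sorted bulk RNA, fewer erythroid cells among the sorted cells and less erythroid RNA per cell cannot be told apart.

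The promoters of 3 members are shown for what they share in sequence, since GATA1 and KLF1 bind DNA motifs of known form. Of the 9 genes, 7 matched an entry in a RefSeq promoter table (build GRCm38.p6), with Tfrc entered at a pair of start sites, which gives 8 promoters. Slc4a1 and Car2 had none. The motifs searched on both strands of the 250 bases before the start site were a GATA motif (AGATAA, in which the first letter may also be T and the last also G) and a CACCC-type motif of the KLF family (CCNCNCCC). The GATA motif was found in 5 of the 8 member promoters, against 26.5% of all 32851 promoters in the table. The CACCC-type motif was found in 5 of 8 against 45.9%, and both together in 2 of 8, those of Alas2 and Epor, against 8.19%. Of the 5 promoters with the CACCC-type motif, 2 were those of Tfrc, whose windows overlap, so that gene is counted more than once. Single GATA motifs lay 86 bases before the start site in Alas2, 80 in Klf1, 67 in Ermap, 54 in Epor and 31 in Rhag. Printed 5′ to 3′ along the gene's strand, with motif letters in capitals (the GATA motif lies on the opposite strand in all 3 and so is read in reverse complement), the promoters of Alas2 (chrX:150547167-150547416, plus strand), Klf1 (chr8:84901732-84901981, plus strand) and Epor (chr9:21963577-21963826, minus strand) read:
Alas2: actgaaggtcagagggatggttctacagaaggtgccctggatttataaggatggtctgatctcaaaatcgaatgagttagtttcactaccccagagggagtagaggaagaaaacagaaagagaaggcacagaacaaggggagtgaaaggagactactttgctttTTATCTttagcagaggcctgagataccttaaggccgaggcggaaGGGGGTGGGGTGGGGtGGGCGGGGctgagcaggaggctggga
Klf1: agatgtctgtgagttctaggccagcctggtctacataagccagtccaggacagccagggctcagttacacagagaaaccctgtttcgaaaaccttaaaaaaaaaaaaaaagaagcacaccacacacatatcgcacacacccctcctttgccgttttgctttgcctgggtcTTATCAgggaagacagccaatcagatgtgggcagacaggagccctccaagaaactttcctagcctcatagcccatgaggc
Epor: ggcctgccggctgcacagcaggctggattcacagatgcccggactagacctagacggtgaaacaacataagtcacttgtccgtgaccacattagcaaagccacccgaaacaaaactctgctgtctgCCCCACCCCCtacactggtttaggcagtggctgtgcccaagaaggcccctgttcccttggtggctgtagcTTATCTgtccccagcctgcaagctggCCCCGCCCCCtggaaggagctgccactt
A run of capitals in Alas2 or Epor can hold several overlapping CACCC-type matches. A match describes the letters and is not a measured binding site.

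The 9 genes differed widely in level. Levels were compared between genes as normalized counts per 1000 bases of exon. In untreated WT-labelled M-MDSCs the medians per 1000 bases were 10.9 for Tfrc and 6.19 for Car2, whose values did not overlap. Next came 1.04 for Alas2, 0.772 for Slc4a1, 0.741 for Ermap and 0.644 for Gata1, which overlapped one another, and Klf1, Epor and Rhag had medians of 0. In untreated WT-labelled PMN-MDSCs the order was Car2 at 31.3, Tfrc at 25.4, Slc4a1 at 10.5 and Ermap at 8.08. Neighbours overlapped in each of those steps, except that Tfrc stayed above Slc4a1. Lymphodepleted WT-labelled PMN-MDSCs had medians of 127 for Tfrc, 79.6 for Car2, 51.8 for Slc4a1 and 34.7 for Alas2 down to 4.52 for Gata1. For scale, Alas1, the heme synthesis enzyme of all cells, had medians of 48.5 and 141 per 1000 bases in untreated WT-labelled M-MDSCs and PMN-MDSCs, above every member in those groups.

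**Figure D1:**
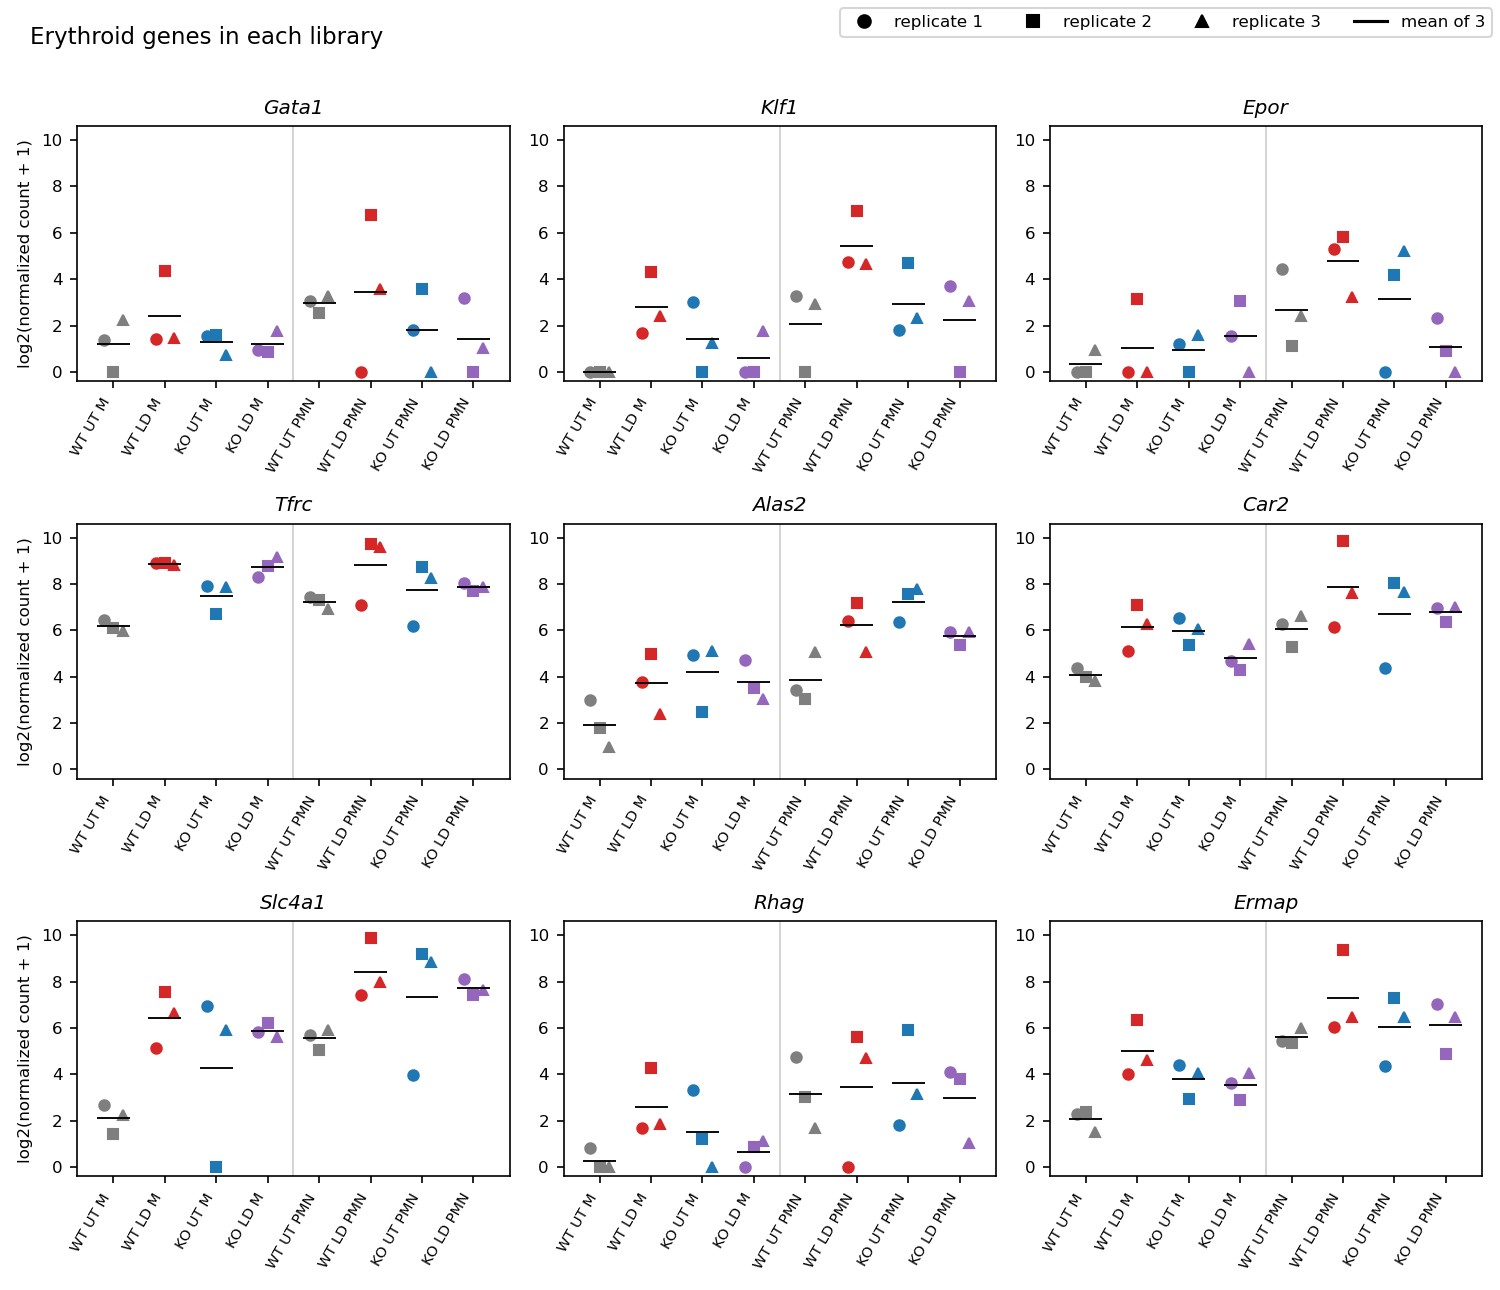
Each panel plots 1 gene, with log2(normalized count + 1) on the vertical axis and the 8 groups along the horizontal axis. Points are libraries (circle, square and triangle for replicates 1, 2 and 3) and bars are means of 3; the square of WT LD PMN stands above its group for most genes, and Tfrc, Car2, Alas2 and Ermap have reads in every library.

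A pair of libraries stood apart. WT_LD_PMN_2 was the highest of the 12 PMN-MDSC libraries for 7 of the 9 members, and WT_LD_M_2 was the highest of the 12 M-MDSC libraries for 7 of 9, or for 3 of the 5 that passed the filter for testing (10 normalized counts in at least 3 of 12 libraries). Over all tested genes these libraries were highest for 9.33% and 4.81%. The excess was uneven: WT_LD_PMN_2 exceeded the next library 9.88-fold for Gata1, 4.69-fold for Klf1, 4.28-fold for Ermap and 3.56-fold for Car2, but 1.60-fold for Slc4a1 and 1.07-fold for Tfrc. WT_LD_M_2 exceeded the next 5.12-fold for Gata1 and 3.49-fold for Ermap. The members not highest in these libraries were Alas2 in both cell types (highest in KO_UT_M_3 and KO_UT_PMN_3), Tfrc in M-MDSCs and Rhag in PMN-MDSCs. Differences, calls and counts that rest on them are therefore also given without them.

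Gata1 and Klf1, the lineage's transcription factors, were near the limit of detection in M-MDSCs. Normalized counts of Gata1 were 1.66, 19.3 and 1.72 in lymphodepleted WT-labelled M-MDSCs and at most 3.77 in the other 9 M-MDSC libraries. Klf1 had no read in untreated WT-labelled M-MDSCs, among 24115549 reads in 3 libraries, and stood at 2.22, 18.6 and 4.31 after lymphodepletion. Against a floor of 3 reads over the untreated group, that mean was at least 9.80-fold higher, and at least 3.82-fold higher without WT_LD_M_2, which covers counting error only. Neither gene passed the filter for testing in M-MDSCs.

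In PMN-MDSCs, Klf1 stood at 8.56, 0 and 6.53 in untreated WT-labelled libraries and at 25.7, 121 and 23.9 after lymphodepletion. All 3 treated libraries lay above all 3 untreated ones, and the log2 difference was 3.38 ± 1.25 SE (adjusted p = 0.0889). Without WT_LD_PMN_2 it was 2.63. KO-labelled values of Klf1 were 2.47, 25.2 and 3.96 untreated and 12.2, 0 and 7.22 lymphodepleted, which overlapped. Gata1 did not follow Klf1 in every library: it was 0, 109 and 11.02 in lymphodepleted WT-labelled PMN-MDSCs, with no read in the shallowest library, against 7.34, 4.80 and 8.71 untreated. In KO-labelled PMN-MDSCs Gata1 was 2.47, 11.1 and 0 untreated and 8.15, 0 and 1.03 lymphodepleted, and these also overlapped.

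Epor, the receptor for erythropoietin, was at 0 in 6 of 12 M-MDSC libraries and reached at most 7.74 there. In PMN-MDSCs it stood at 20.8, 1.20 and 4.35 in untreated and 38.5, 54.7 and 8.27 in lymphodepleted WT-labelled libraries. Under the KO label it was 0, 17.1 and 36.6 untreated and 4.08, 0.849 and 0 lymphodepleted. Lymphodepleted KO-labelled values were thus all below lymphodepleted WT-labelled ones, with a log2 difference of -3.70 ± 1.36 SE (adjusted p = 0.520), or -3.18 without WT_LD_PMN_2. Klf1 was ordered in the same way between those groups, at -3.18 ± 1.25 SE (adjusted p = 0.526), or -2.43 without that library. These were the only members whose groups did not overlap in that comparison (2 of 9, where 4.9% of all tested genes were lower without overlap), and no member was called.

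Tfrc, the iron uptake receptor, had the highest median per 1000 bases of the members in every M-MDSC group. Normalized counts rose from 87.1, 67.4 and 61.3 in untreated to 483, 476 and 450.0 in lymphodepleted WT-labelled M-MDSCs. The KO-labelled M-MDSCs held 241, 103 and 236 untreated and 316, 434 and 567 lymphodepleted. In both labels every treated library exceeded every untreated one. The log2 difference was 2.70 ± 0.29 SE in WT-labelled cells (adjusted p = 0.000104) and 2.69 without WT_LD_M_2. It was 1.24 ± 0.29 SE in KO-labelled cells (adjusted p = 0.0142), a call that was lost without KO_LD_M_2 although the difference stayed at 1.23.

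Untreated KO-labelled M-MDSCs lay above untreated WT-labelled ones for Tfrc, by 1.33 ± 0.29 SE on the log2 scale (adjusted p = 0.0294), with no overlap. Leaving out any 1 of the libraries other than KO_UT_M_2 ended that call. In PMN-MDSCs Tfrc stood at 174, 157 and 119.7 in untreated and 135, 839 and 783 in lymphodepleted WT-labelled libraries. Of these, WT_LD_PMN_1 lay inside the untreated range and the other two far above it. The KO-labelled values were 71.7, 428 and 308 untreated and 266, 205 and 234 lymphodepleted, where the untreated libraries spanned the treated ones. The difference in WT-labelled PMN-MDSCs was 1.58 ± 0.63 SE (adjusted p = 0.110). It was 1.13 without WT_LD_PMN_2 and, without the shallow WT_LD_PMN_1, 2.44 and called.

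Alas2, the erythroid form of the first heme synthesis enzyme, had its highest values in untreated KO-labelled libraries. In M-MDSCs it stood at 7.07, 2.498 and 0.944 in untreated and 12.8, 30.9 and 4.31 in lymphodepleted WT-labelled libraries, which overlapped (1.80 ± 0.84 SE, adjusted p = 0.152, and 1.17 without WT_LD_M_2). KO-labelled M-MDSCs held 30.1, 4.62 and 34.0 untreated and 25.6, 10.5 and 7.24 lymphodepleted. KO_UT_M_2 was the low library of its group for Alas2, as it was for Slc4a1, Car2, Tfrc and Ermap.

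In PMN-MDSCs Alas2 rose with lymphodepletion in WT-labelled cells, from 9.79, 7.20 and 32.6 to 83.5, 146 and 32.1. The log2 difference was 2.37 ± 0.66 SE (adjusted p = 0.0341), although WT_UT_PMN_3 and WT_LD_PMN_3 held nearly the same level. Leaving out WT_LD_PMN_2 (1.88, adjusted p = 0.0907), WT_UT_PMN_1 or WT_UT_PMN_2 ended the call, and adjusted p over all alternatives ran from 0.00324 to 0.125. KO-labelled PMN-MDSCs held 81.6, 188 and 219.7 untreated and 60.1, 39.9 and 59.9 lymphodepleted, with all treated libraries below all untreated ones and a difference of -1.50 ± 0.66 SE that was not called (adjusted p = 0.447). Untreated KO-labelled libraries were all above untreated WT-labelled ones, by 3.39 ± 0.66 SE (adjusted p = 0.243). Annotated Alas2 exons share 311 bases with Apex2 on the opposite strand, and the strand setting of the counting is not given in the sources used here.

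Car2, a carbonic anhydrase of the red cell, was present in all 24 libraries. In M-MDSCs it rose from 19.6, 14.99 and 13.2 in untreated to 33.8, 137 and 75.9 in lymphodepleted WT-labelled libraries, with no overlap. In KO-labelled M-MDSCs the treated libraries held 24.7, 18.6 and 42.2 against 90.8, 40.3 and 65.9 untreated. The log2 difference was 2.10 ± 0.47 SE (adjusted p = 0.00758) in WT-labelled cells, or 1.63 without WT_LD_M_2, and -1.18 ± 0.47 SE (adjusted p = 0.127) in KO-labelled cells. Untreated KO-labelled M-MDSCs exceeded untreated WT-labelled ones by 1.92 ± 0.47 SE (adjusted p = 0.0394), with no overlap, a call that leaving out any library other than KO_UT_M_2 ended.

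In PMN-MDSCs Car2 stood at 75.8, 38.4 and 97.9 in untreated and 70.6, 926 and 193 in lymphodepleted WT-labelled libraries. WT_LD_PMN_2 alone was far above the rest, and WT_LD_PMN_1 lay within the untreated range. The difference was 1.81 ± 0.88 SE (adjusted p = 0.184) and 0.82 without WT_LD_PMN_2. KO-labelled values were 19.8, 259.9 and 201 untreated and 124, 81.5 and 129 lymphodepleted, so that the untreated libraries lay on either side of the treated ones.

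Slc4a1, the anion exchanger band 3, had the largest difference of the tested members in WT-labelled M-MDSCs. It stood at 5.50, 1.67 and 3.77 in untreated and 33.8, 185 and 98.3 in lymphodepleted libraries, with no overlap. KO-labelled M-MDSCs held 122, 0 and 59.1 untreated and 56.0, 73.7 and 47.7 lymphodepleted. The untreated KO-labelled libraries thus ranged from no read to more than any treated one of the same label. The log2 difference was 4.31 ± 1.28 SE (adjusted p = 0.0314) in WT-labelled cells and 1.60 ± 1.28 SE (adjusted p = 0.464) in KO-labelled cells. Without WT_LD_M_2 the first was 3.75 and no longer called. It was also not called without WT_LD_M_3 or without any 1 of the untreated libraries.

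In PMN-MDSCs Slc4a1 stood at 51.4, 32.4 and 58.8 in untreated and 173, 930.2 and 253 in lymphodepleted WT-labelled libraries, again with no overlap. The difference of 2.88 ± 0.97 SE missed the threshold (adjusted p = 0.0657), was 2.16 without WT_LD_PMN_2, and was 3.37 and called without WT_LD_PMN_1. KO-labelled PMN-MDSCs held 14.8, 582 and 465 untreated and 276, 171 and 200.2 lymphodepleted. The library labelled KO_UT_PMN_2 carried abundant Slc4a1 reads while KO_UT_M_2, of the same number, carried none.

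Rhag, the Rh-associated glycoprotein, was at most 18.6 in M-MDSCs and at 0 in 4 of those 12 libraries. In PMN-MDSCs it was 25.7, 7.20 and 2.18 in untreated and 0, 48.2 and 24.8 in lymphodepleted WT-labelled libraries. Values under the KO label were 2.47, 59.4 and 7.92 and 16.3, 12.7 and 1.03 in the same order. All 4 groups overlapped.

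Ermap, an immunoglobulin-type membrane protein of erythroid cells, rose in WT-labelled M-MDSCs from 3.93, 4.16 and 1.89 to 14.98, 81.2 and 23.3, with no overlap. The log2 difference was 2.92 ± 0.63 SE (adjusted p = 0.00596), and 2.23 without WT_LD_M_2, still called. KO-labelled M-MDSCs held 20.3, 6.60 and 15.6 untreated and 11.4, 6.48 and 15.7 lymphodepleted, which overlapped. In PMN-MDSCs Ermap stood at 42.8, 39.6 and 63.1 in untreated and 64.2, 668 and 88.2 in lymphodepleted WT-labelled libraries, where WT_LD_PMN_2 was the high one and WT_LD_PMN_1 just cleared the untreated range. That difference was 1.70 ± 0.84 SE (adjusted p = 0.195) and 0.65 without WT_LD_PMN_2. KO-labelled PMN-MDSCs held 19.8, 156 and 88.1 untreated and 130.5, 28.9 and 88.8 lymphodepleted.

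Across the members, lymphodepletion in WT-labelled M-MDSCs was the comparison with most calls. Tfrc, Slc4a1, Ermap and Car2 were called higher, 4 of the 5 that passed the filter, where 18.3% of all tested genes were called in either direction and 9.52% higher. The same 4 showed no overlap, against 16.9% of all genes. The other 4 members, Gata1, Klf1, Epor and Rhag, were too low to be tested, and a member may pass the filter because of the group in which it is high, so this count is no rate for the set of 9. In KO-labelled M-MDSCs Tfrc alone was called, 1 of 5, where 11.6% of all tested genes were called, and it alone was higher with no overlap, against 13.7%. In WT-labelled PMN-MDSCs Alas2 alone was called, 1 of 9 against 10.9%, while Klf1, Slc4a1 and Ermap were higher with no overlap (3 of 9, against 12% of all tested genes) but missed the threshold. In KO-labelled PMN-MDSCs limma called 0 of 9, against 0.224% of all genes, with 1 at an unadjusted p under 0.05. edgeR and DESeq2 called 0 there too, and Alas2 alone was lower with no overlap, against 9.81%.

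**Figure D2:**
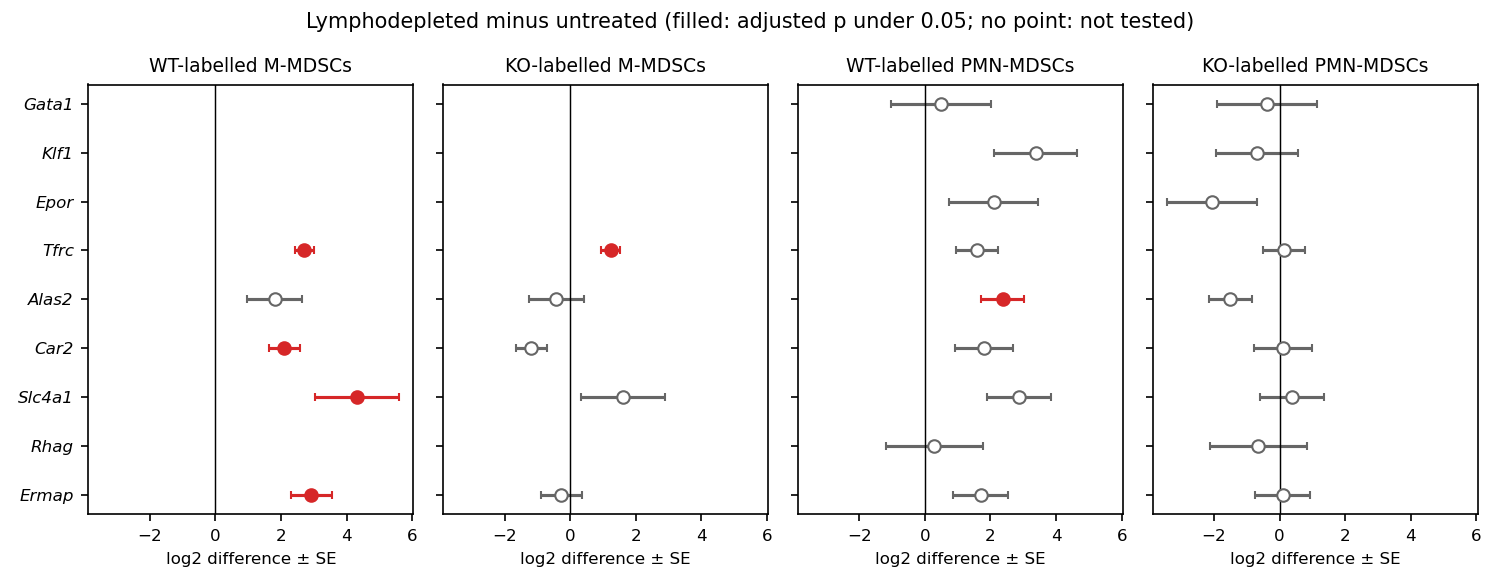
The log2 difference between lymphodepleted and untreated libraries is plotted with its standard error for each tested member, 1 panel for each label and cell type. Filled points have an adjusted p under 0.05: 4 in WT-labelled M-MDSCs, 1 in KO-labelled M-MDSCs, 1 in WT-labelled PMN-MDSCs and 0 in KO-labelled PMN-MDSCs.

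The differences between labels in the response to lymphodepletion were themselves tested. In M-MDSCs the interaction was -3.28 ± 0.67 SE for Car2 (adjusted p = 0.273), -3.19 ± 0.89 SE for Ermap (adjusted p = 0.328) and -1.47 ± 0.41 SE for Tfrc (adjusted p = 0.328). limma called 0 of 5, with 0.00864% of all genes called and 3 of the 5 at an unadjusted p under 0.05. DESeq2 on the recovered reads called 3 and edgeR 0. The shares of all genes that these tools called, here and in PMN-MDSCs, are not reported. Without WT_LD_M_2 the 3 interactions were -2.81, -2.499 and -1.46. In PMN-MDSCs the interaction was -3.87 ± 0.93 SE for Alas2 (adjusted p = 0.536), -4.17 ± 1.92 SE for Epor and -4.06 ± 1.77 SE for Klf1. Without WT_LD_PMN_2 these were -3.38, -3.65 and -3.31. limma called 0 of 9, with 0.0% of all genes called and 3 of the 9 at an unadjusted p under 0.05, while DESeq2 called 1, Alas2, and edgeR 0. A response called under 1 label and not under the other was therefore not shown to differ between labels by limma.

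Between labels, 2 of 5 tested members (Car2 and Tfrc) were called higher in untreated KO-labelled M-MDSCs, against 4.03% of all tested genes, and Ermap was also higher with no overlap (1.73 ± 0.63 SE, adjusted p = 0.132), which makes 3 of 5 against 16.1% of all genes. In lymphodepleted M-MDSCs limma called 0 of 5, against 0.207%, with 2 at an unadjusted p under 0.05. In untreated PMN-MDSCs it called 0 of 9, against 0.00771%, with Alas2 alone at an unadjusted p under 0.05, called by DESeq2 and higher with no overlap (1 of 9 against 6.21%). In lymphodepleted PMN-MDSCs it called 0 of 9, against 0.0154%, with 2 at an unadjusted p under 0.05. edgeR called no member in these 3 comparisons, and DESeq2 none under lymphodepletion. The comparisons share groups, so the KO-labelled untreated libraries enter both the label comparison and the treatment comparison. These untreated KO-labelled M-MDSC libraries also carried more NK cell transcripts. The 6 NK genes summed to 4169 to 5768 normalized counts against 1078 to 1251, and all 6 were called higher. Of all tested genes 2.24% were called higher there. T cell genes summed to 768 to 1236 against 195 to 305 (4 of 6 called higher), B cell genes to 573 to 940 against 279 to 345 (0 of 6) and cell cycle genes to 1474 to 9154 against 1295 to 1424 (3 of 15). On leaving out a library the NK count was 1 to 4, that of T cell genes 0 to 3 and that of cell cycle genes 0, except 13 without KO_UT_M_2. Progenitor genes summed to 568 to 1500 against 417 to 474, also with no overlap, and their calls are not reported here. Sums of the red pulp macrophage, megakaryocyte and basophil lists overlapped between these groups. The part of such transcripts in the members' values was not tested.

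Where members differed between the cell types by the test, they were lower in M-MDSCs. Lower values were called for Car2, Slc4a1 and Ermap in untreated WT-labelled cells (3 of 9, where 28.3% of all tested genes were called lower) and for Alas2, Epor and Ermap in lymphodepleted ones (3 of 9 against 19.9%). In KO-labelled cells they were called for Alas2 and Ermap untreated (2 of 9 against 23.6%) and for Alas2, Car2 and Ermap lymphodepleted (3 of 9 against 23.6%). These shares of calls are near those of all genes. With no overlap, every member but Klf1 was lower in untreated WT-labelled M-MDSCs, where 35.2% of all tested genes were. Alas2, Epor and Klf1 were lower with no overlap in lymphodepleted WT-labelled cells (20.4% of all genes), and Alas2 in untreated KO-labelled ones (28.2%). In lymphodepleted KO-labelled cells Alas2, Car2, Slc4a1 and Ermap were (27.1%). Ermap was called in all 4 comparisons, from -3.53 ± 0.83 SE in untreated to -2.31 ± 0.83 SE in lymphodepleted WT-labelled cells. Without WT_LD_PMN_2 none of the 3 lymphodepleted WT-labelled differences was called: Ermap was then at -1.27, Alas2 at -1.996 (from -2.49) and Epor at -3.22 (from -3.73). Without WT_LD_M_2 all 3 were called, and Klf1 as well. Tfrc was called in none of the 4. In lymphodepleted KO-labelled cells it was higher in M-MDSCs with no overlap (log2 difference 0.87), as were 29% of all tested genes. The change of the cell type difference with lymphodepletion was called for 0 of 9 members by limma, edgeR and DESeq2 under either label, with 0 at an unadjusted p under 0.05, where 0.788% and 0.0966% of all genes were called.

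Other genes of the red cell programme were examined as lists, 85 of whose 90 gene symbols are in the table. Hba-a1, Hba-a2, Hbb-bs, Hbb-bt, Hbb-b1 and Hbb-b2 are listed at 0 in all 24 libraries, and the 11 globin genes in the table together gave at most 9.89 normalized counts in a library. These genes have near-identical copies, and how reads shared between copies were counted is not given in the sources used here. Ahsp, Epb41, Epb42 and Spi1 were not analysed here. Erfe is in the table only under its older symbol Fam132b, which reached at most 25.68 normalized counts in PMN-MDSCs, in WT_LD_PMN_1.

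Of the erythroid lists, that of membrane and surface genes had most calls with lymphodepletion in WT-labelled M-MDSCs. Of 12 tested, 6 were called higher and none lower, with a median log2 difference of 2.34 against -0.07 over all tested genes. Of all tested genes 9.52% were called higher and 8.82% lower, also the shares for the heme synthesis, transcription factor and iron supply counts below. Cd24a, a surface glycoprotein shared with neutrophil and B cell precursors, rose by 2.87 ± 0.35 SE (adjusted p = 0.000152) and Xk, which carries a blood group antigen, by 2.85 ± 0.43 SE. Kel, the Kell blood group protein, rose by 3.47 ± 0.93 SE. Aqp1, a water channel, and Sptb, a chain of erythroid spectrin, were also called. The count of 6 was 2 of 11 without WT_LD_M_2 or WT_LD_M_3, 2 of 12 without WT_UT_M_1 or WT_UT_M_2, and 3 of 12 without WT_UT_M_3. Among heme synthesis genes 3 of 14 rose, among them Alas1 by 1.52 ± 0.24 SE and Abcb10 by 0.64 ± 0.20 SE, with a list median of 0.17. The transcription factor list had 2 of 11 higher (Hemgn at 3.20 ± 0.85 SE and Sox6 at 2.42 ± 0.75 SE) and Klf3 lower at -0.56 ± 0.13 SE. Without WT_LD_M_2 the heme synthesis list had 3 higher and 1 lower, and the transcription factor list 1 higher and 2 lower. Without WT_UT_M_1 the heme synthesis count was 1 higher.

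Iron supply showed 1 of 8 higher, the iron exporter Slc40a1 at 2.86 ± 0.43 SE, which is also a red pulp macrophage gene. Of the genes downstream of the erythropoietin receptor none was called higher, with Socs3 at -1.26 ± 0.35 SE and Lyn at -0.57 ± 0.18 SE called lower of 7 tested. That count was 4 without WT_LD_M_2, 1 without WT_UT_M_3 and 0 without any 1 of the other 4 libraries. These genes serve many cytokine receptors. Of all tested genes 9.52% were called higher and 8.82% lower in this comparison. Over all 58 tested genes of the lists, 13 were called higher and 3 lower, with a median of 0.10. Without WT_LD_M_2 the counts were 8 higher and 8 lower of 57, and leaving out other single libraries gave 6 to 11 higher and 1 to 2 lower. In KO-labelled M-MDSCs the same 58 gave 2 higher and 5 lower with a median of -0.12, where 6.11% and 5.52% of all tested genes were called. On leaving out a library the 58 gave 2 to 5 higher and 2 to 9 lower, the highest lower count without KO_UT_M_3. The membrane list had 0 of 12 called by limma, edgeR and DESeq2, with 3 at an unadjusted p under 0.05. Alas1 rose there as well, by 1.25 ± 0.24 SE, and Zfpm1, the cofactor of GATA1, fell by 2.01 ± 0.34 SE on the log2 scale.

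In WT-labelled PMN-MDSCs 3 of 72 tested list genes were called higher and 6 lower, where 4.14% and 6.73% of all tested genes were, with a median of 0.58 against -0.20 over all genes. The 3 were Tspo2 at 3.57 ± 0.93 SE, Sptb at 2.64 ± 0.73 SE and Lmo2, a partner of the GATA factors, at 0.80 ± 0.23 SE. The 6 were Slc2a1, Slc40a1, Klf3, Stat5b, Pim1 and Socs3. Without WT_LD_PMN_2 the counts were 0 higher and 7 lower of 70, without WT_LD_PMN_1 they were 11 higher and 8 lower, without WT_LD_PMN_3 they were 2 and 1, and without any 1 of the untreated libraries they were 0 higher and 0 to 1 lower. In KO-labelled PMN-MDSCs limma called 0 of 72, with 6 at an unadjusted p under 0.05, and edgeR and DESeq2 called 0 and 1. WT_LD_PMN_2 was the highest of 12 libraries for 14 of 18 membrane genes, 11 of 14 heme synthesis genes, 7 of 13 transcription factors and 5 of 8 red cell enzymes, as it was for the members. It was highest for 2 of 15 cell cycle genes, 0 of 5 PMN-MDSC markers, 0 of 6 B cell genes and 2 of 9 progenitor genes. Outside the erythroid lists it was also highest for 2 of 3 basophil, mast cell and eosinophil genes. For red pulp macrophage genes this was 3 of 8 and for megakaryocyte genes 2 of 7, against 9.33% of all tested genes. WT_LD_M_2 was the highest M-MDSC library for 7 of 12 membrane genes and 3 of 5 PMN-MDSC markers, against 4.81%.

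**Figure D3:**
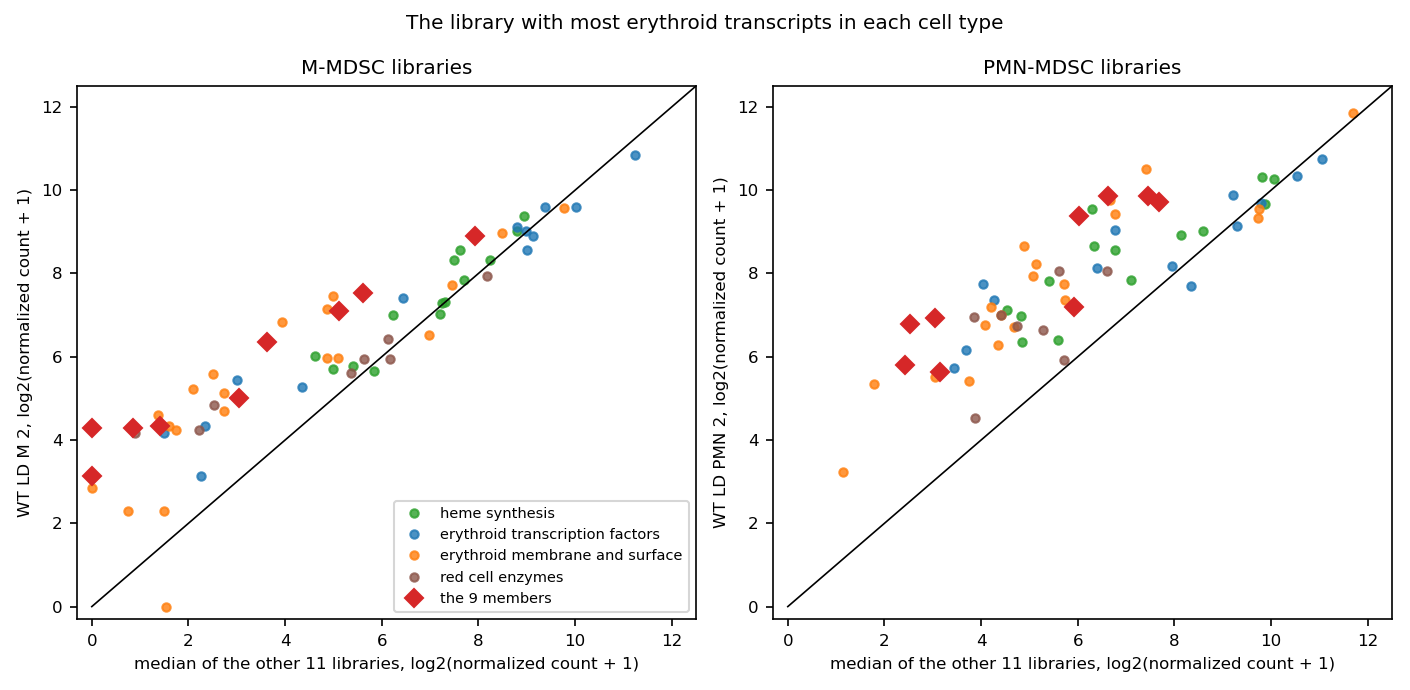
The level of each erythroid gene in the library with most erythroid transcripts (vertical, WT LD M 2 on the left and WT LD PMN 2 on the right) is plotted against its median over the other 11 libraries of that cell type (horizontal), both as log2(normalized count + 1). Diamonds are the 9 members, all above the line of equal level in both panels, and circles are genes of the other erythroid lists.

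Transcripts of other cells and of dividing cells moved with the treatment too. The 15 cell cycle genes summed to 1295 to 1424 in untreated and 16872 to 28072 in lymphodepleted WT-labelled M-MDSCs. Of these, 15 of 15 were called higher, against 9.52% of all tested genes. In WT-labelled PMN-MDSCs they went from 1595 to 1814 to 8799 to 29273, with 12 of 15 called (4.14% of all tested genes were called higher). That count was 6 with quantile normalization, 5 without WT_LD_PMN_3, and 4, 3 and 6 without WT_UT_PMN_1, WT_UT_PMN_2 and WT_UT_PMN_3. The KO-labelled sums went from 1474 to 9154 to 12622 to 27935 in M-MDSCs and from 695 to 4569 to 4298 to 16445 in PMN-MDSCs. The cell cycle and member sums did not peak together. WT_LD_M_3 and WT_LD_PMN_3 had the highest cell cycle sums of their cell types. WT_LD_M_2 and WT_LD_PMN_2 had the highest member sums, 974 and 3842. Tfrc, which dividing cells also use, made up 476 of the 974 and 839 of the 3842, and 483 of 585 in WT_LD_M_1. KO_LD_PMN_2 had a cell cycle sum of 16445 with a member sum of 539.

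For the counts that follow, 9.52% of all tested genes were called higher and 8.82% lower with lymphodepletion in WT-labelled M-MDSCs. In WT-labelled PMN-MDSCs the shares were 4.14% and 6.73%. Progenitor genes summed to 417 to 474 and 1347 to 1747 in untreated and lymphodepleted WT-labelled M-MDSCs (5 of 7 called higher). In WT-labelled PMN-MDSCs they summed to 439 to 542 and 1863 to 3133 (3 of 9, or 1 without WT_UT_PMN_2 or WT_UT_PMN_3). Basophil, mast cell and eosinophil genes, from lineages in which GATA factors also act, summed to 14.2 to 38.5 in untreated and 229.8 to 394 in lymphodepleted WT-labelled M-MDSCs, with 3 of 3 tested called higher. In PMN-MDSCs the 8 genes of that list summed to 9992 to 11199 and 4487 to 6992, with 1 of 3 called lower, a call lost on leaving out any 1 library but WT_LD_PMN_1. Red pulp macrophage genes, from the cells that clear old red cells, summed to 739 to 973 and 1074 to 1782 in the same M-MDSC groups, with 2 of 7 called higher (Slc40a1 and Vcam1). Megakaryocyte genes, which share GATA1 with the red cell lineage, summed to 278 to 361 and 297 to 366, with Pf4 called higher (at 0 in all 3 untreated libraries, and not called without any 1 of the treated ones) and Vwf called lower of 4. In WT-labelled PMN-MDSCs their sum went from 872 to 1073 to 1329.9 to 1486, with Gp1bb called of 7 (not without WT_LD_PMN_3, WT_UT_PMN_1 or WT_UT_PMN_2). B cell genes fell from 279 to 345 to 34.8 to 68.8 in WT-labelled M-MDSCs, with 5 of 6 called lower. NK cell genes fell from 1078 to 1251 to 84.5 to 236 (6 of 6 called lower) and T cell genes stood at 195 to 305 and 58.6 to 96.5 (1 of 6). The part of any of these in the members' values was not tested.

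**Figure D4:**
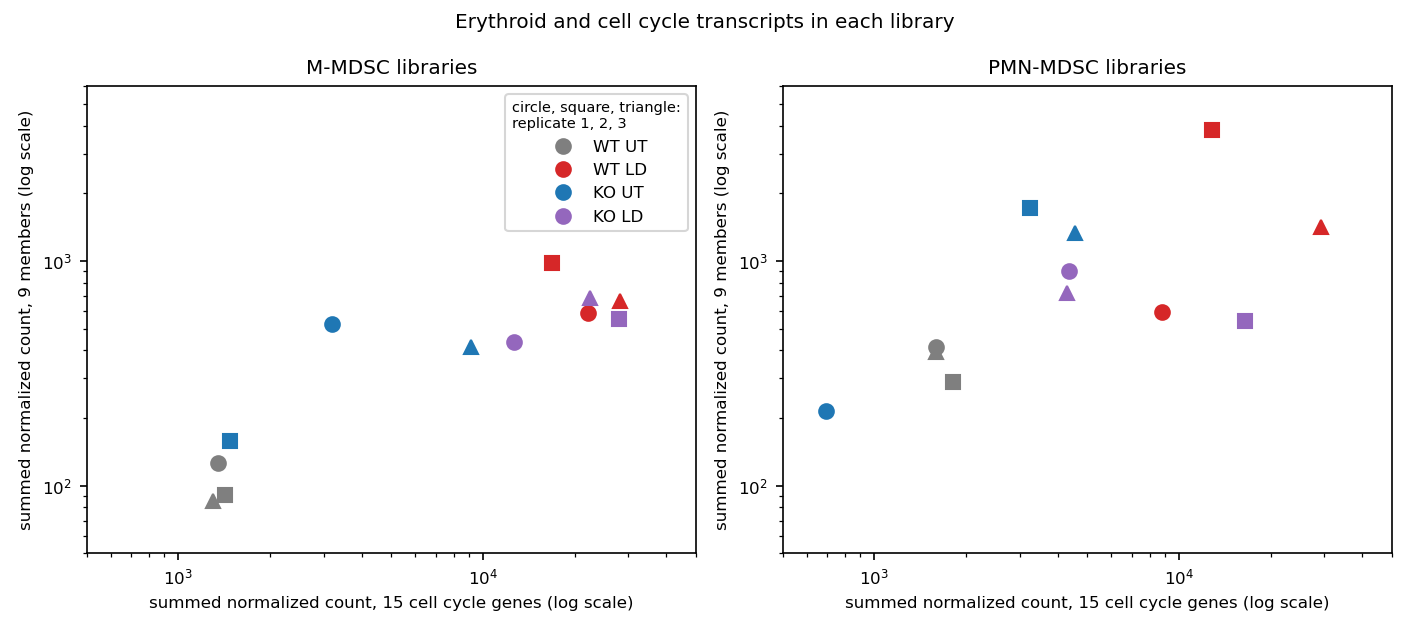
The summed normalized count of the 9 members (vertical, log scale) is plotted against that of 15 cell cycle genes (horizontal, log scale) for each library, M-MDSCs on the left and PMN-MDSCs on the right, with colours for label and treatment and shapes for replicates. Untreated WT-labelled libraries sit at the lower left of both panels. In the PMN-MDSC panel KO UT PMN 1 lies further left and lower than they do, at a cell cycle sum of 695 and a member sum of 215. WT LD PMN 2 has the highest member sum, 3842, at a cell cycle sum of 12850, below only WT LD PMN 3 (29273) and KO LD PMN 2 (16445) among PMN-MDSC libraries. Tfrc is the largest part of the member sum in every M-MDSC library.

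Within each cell type the members varied together to unequal degrees. Over the 12 M-MDSC libraries the 10 pairs of the 5 tested members had Pearson correlations of log2 values from 0.57 to 0.91 (median 0.70). Over the 12 PMN-MDSC libraries the 36 pairs of 9 members ran from -0.02 to 0.93 (median 0.60). Without WT_LD_M_2 the first ran from 0.52 to 0.88 (median 0.66), and without WT_LD_PMN_2 the second from -0.34 to 0.92 (median 0.43). These are descriptions, since the points share treatment, label and library depth. The genes whose pattern was most like the mean of the members Klf1, Epor, Slc4a1, Ermap, Rhag, Gata1 and Alas2 that passed the filter were then ranked. In M-MDSCs, where 3 of the 7 passed, they were Sptb (r = 0.957), Kel (0.886), Zfp654 (0.872), Slc39a9 (0.860), Chst13 (0.860) and Ank1 (0.859), over 12 libraries and 10745 genes. Zfp654 and Slc39a9 varied little in level, from 110.7 to 180.3 and from 289 to 382 normalized counts. In PMN-MDSCs, where all 7 passed, they were Slc16a1 (r = 0.945), Cpox (0.941), Myef2 (0.928), Abcb10 (0.923), Hemgn (0.920) and Ank1 (0.914), among 11965 genes. Each of these 6 was highest in WT_LD_PMN_2, and in M-MDSCs all but Chst13 were highest in WT_LD_M_2. Without those libraries Sptb and Slc16a1 kept the first rank. Kel, Zfp654, Slc39a9 and Ank1 then had ranks 11, 15, 59 and 55 in M-MDSCs, and Myef2 and Ank1 ranks 9 and 14 in PMN-MDSCs. Ank1, the red cell ankyrin that ties SLC4A1 to the spectrin skeleton, was in both lists.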

How the data were processed

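The authors deposited 1 signal value for each gene and library, a read count scaled by that library's size factor, which was inferred from the values. The tools named per the submitters' processing notes are STAR 2.5.3a, HTSeq 0.6.1 and DESeq2, with build mm10. For the annotation, strand setting and filters, what was used is not given in the sources used here. Per the labels' protocols, 100 ng of total RNA per sample was made into NuGen libraries with rRNA depletion. Dividing each library by its step returned whole reads for 100% of values (tolerance 0.001 reads).

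The main test was limma 3.58.1 (R 4.3.3) with a trend, on values as log2(normalized count + 1). A gene was tested where 3 or more of the fitted libraries reached 10 normalized counts. The 12 libraries of a cell type shared a fit, and cell types were compared in a fit of 24. Two-sided p-values were adjusted by Benjamini-Hochberg over all tested genes, and a gene was called below 0.05. Fold changes on this scale understate changes of low genes. A log2 difference is lymphodepleted minus untreated, KO minus WT label, or M-MDSC minus PMN-MDSC.

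All 9 members are named with their values. From the other lists, up to 3 called genes with the smallest adjusted p were named per list and comparison, and further genes beyond that rule (Aqp1 and Sptb in M-MDSCs, Ccr2 and Retnlg) after their values were seen. Some list genes that this rule names are not reported here. Members and lists were chosen with earlier results of these data known. The limma test was also run on simulated data, with a fixed spread for all genes and changes planted only above a set mean level. That run does not cover members of low level or wide spread, and its outcome is not reported here. Alternatives were pseudocounts of 0.5 and 5, no filter, quantile normalization, edgeR 4.0.16 and DESeq2 1.42.0 on the whole reads, 1 fit of 24 libraries, blocking on the replicate number, and leaving out each library. Leaving out the 3 shallowest PMN-MDSC libraries was added after seeing the data, as were correlations without WT_LD_M_2 or WT_LD_PMN_2. Gene positions and exon lengths came from GENCODE vM21 (GRCm38).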

Additional observations from a re-analysis of the deposited data

How the results depend on the processing

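No member difference of at least 2 standard errors, or called, reversed under any alternative run (45 differences, 679 values). Of 267 alternative values for the 19 called differences, 200 kept the call and 67 lost it. The count of members called with lymphodepletion in WT-labelled M-MDSCs, 4, was 3 to 4 on leaving out a library. The Car2 call among them was lost in the limma fit of 24 libraries (adjusted p = 0.150). In KO-labelled M-MDSCs the count of 1 became 0 in the fit of 24 libraries, and 0 to 1 on leaving out a library. In WT-labelled PMN-MDSCs the count of 1 became 3 with edgeR, 5 with DESeq2, 3 in the fit of 24, 4 without the 3 shallowest libraries, and 0 to 4 on leaving out a library, with 4 without WT_LD_PMN_1. Between labels in untreated M-MDSCs the count of 2 became 1 without a filter, 1 with quantile normalization, 4 with DESeq2, 0 in the fit of 24, and 0 to 4 on leaving out a library, with 4 without KO_UT_M_2. Counts of 0 became 1 with DESeq2 between labels in untreated PMN-MDSCs, 3 with DESeq2 for the M-MDSC interaction and 1 with DESeq2 for the PMN-MDSC interaction. Between cell types the untreated WT-labelled count of 3 became 7 with DESeq2, 5 without the 3 shallowest libraries and 1 to 5 on leaving out a library. The lymphodepleted WT-labelled count of 3 became 5 without those libraries and 0 to 4 on leaving out a library. The untreated KO-labelled count of 2 became 7 and 1 to 4 in the same order. The lymphodepleted KO-labelled count of 3 became 1 without a filter and 0 to 2 on leaving out a library. The share of all genes called under each alternative is not reported here, so these counts cannot be set against it. The cause of these changes was not tested. Gata1, Klf1, Epor and Rhag had 10 to 25 reads in WT_LD_M_2 and 0 to 14 in the other M-MDSC libraries, and were not tested there.

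With the replicate number as a block, the count became 2 with lymphodepletion in WT-labelled PMN-MDSCs (Slc4a1 added) and 1 between labels in untreated M-MDSCs (Car2 lost), and Alas2 was lost between lymphodepleted KO-labelled cell types. It changed no other call. Shared numbers were not taken as pairing, and whether they mark a shared mouse is not settled here. The rule asked every pair to correlate above 0.1, which libraries of 1 mouse need not reach. Between cell types 4 of 12 pairs reached it, among them WT_LD_M_2 with WT_LD_PMN_2 at 0.158. Deviations of same-numbered libraries correlated at -0.083 to 0.221 between cell types, with 8 of 12 highest for their own number, at -0.176 to 0.108 between labels (1 of 12) and at -0.140 to 0.122 between treatments (2 of 12).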
